A study of Mus musculus with 6 samples.

Results

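Trank1 was nearly silent in hair follicle cells of control newborn mice and was transcribed at a far higher level in cells of the genotype Ring1a-/- Ring1b-/I53A. No tested gene within 1 Mb of it on mouse chromosome 9 rose to that extent. Of the 16 tested there, none was called as changed by edgeR on the group alone, against 3% of all genes. One of them, Als2cl, was called with the replicate number as a block or without control 3. The genes described are the 5 symbols Lrrfip2, Epm2aip1, Trank1, Dclk3 and Golga4, of 24453 symbols in the count files. Trank1 was chosen for its higher reads in these mutant libraries, so its difference between the groups is given as a description without a test. The other 4 were chosen as nearby genes, with earlier results of these libraries known. All 5 passed the filter on low counts, Trank1 through the mutant libraries alone. RNA was measured in 6 libraries from back skin at postnatal day 0, sorted on EpCAM, α6-integrin and Sca1 and labelled as hair follicle cells. Of these, 3 libraries carry the label control, with no allele given, and 3 the mutant genotype, which joins loss of Ring1a with a Ring1b null allele and the Ring1b allele I53A. No group separates these alleles, and the labels name no Cre or other driver of tissue-specific deletion. Whether the libraries of a group came from separate animals is not stated either, so the p-values measure the spread between libraries, part of which may be technical.

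Ring1a and Ring1b are the ubiquitin ligases of Polycomb repressive complex 1, which marks histone H2A and keeps many developmental genes silent, often at promoters rich in CpG. The I53A allele makes a Ring1b protein that is present but has weak ligase activity towards histones. Trank1 encodes a very large protein with tetratricopeptide and ankyrin repeats. It is known from brain, and its human counterpart lies at a locus associated with bipolar disorder. Lrrfip2 encodes a partner of Dishevelled in Wnt signalling, and Epm2aip1 a partner of laforin, the phosphatase lost in Lafora disease of glycogen storage. Dclk3 encodes a protein kinase of the doublecortin-like family, and Golga4 a long coiled-coil golgin that tethers vesicles at the trans-Golgi. In human the counterparts of these genes lie next to each other. In mouse, Golga4 is apart from the others on the same chromosome.

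Library totals ran from 14335156 to 18811587 counts, so a level of 1 CPM (counts per total, scaled to parts per 1e6) stood for 14.7 to 18.2 reads. Reads of Ring1 fell from 247, 352 and 372 in the controls to 59, 119 and 73 in the mutants. Those of Rnf2, the gene of Ring1b, were 821, 888 and 1195 against 1178, 1097 and 1067. Keratinocyte genes were high, with Krt5 at 7911 and 9845 CPM in controls and mutants, Krt15 at 1068 and 1101 CPM and Sox9, of follicle cells, at 536 and 575 CPM. Krt1 and Krt10, of the differentiating interfollicular epidermis, were also high, at 3358 and 1357 CPM in controls and 2126 and 982 CPM in mutants. Fibroblast transcripts were present too, with a sum over 6 markers of 588 to 1024 CPM in controls and 655 to 923 CPM in mutants. By the edgeR quasi-likelihood test, 3% of the 14345 genes tested were called at an adjusted p under 0.05 (2.59% up and 0.404% down), and 14.9% had an unadjusted p under 0.05. With the replicate number as a block 9.38% were called (6.09% up and 3.29% down), by DESeq2 6.88% and by limma-voom 2.96%. Of the 12 follicle keratinocyte markers 1 was called, down (Lgr5), and with the block 2 were called up (Krt5 and Krt17) and 3 down (Shh, Edar and Lgr5). Of the 5 interfollicular markers found in the files none was called without the block, and with it Krt1 was called down (-0.66 on the log2 scale, edgeR, adjusted p = 0.00154). The summed level of those 5 was 3821 to 5283 CPM in controls and 2311 to 3859 CPM in mutants, and the part of these markers in the results was not tested.

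On the mouse build GRCm38 (mm10), Lrrfip2 lies at chr9:111117592-111225668, Epm2aip1 at chr9:111271929-111279093, Trank1 at chr9:111311739-111395775, Dclk3 at chr9:111439081-111489118 and Golga4 at chr9:118506267-118582519. All 5 are protein-coding genes on the plus strand. The gap from the end of Epm2aip1 to the start of Trank1 is 32.6 kb, and from the end of Trank1 to the start of Dclk3 43.3 kb. Lrrfip2 ends 86.1 kb before Trank1, and Golga4 starts 7.11 Mb beyond it, so that Golga4 is on the same chromosome but is no close neighbour. Among the genes of the count files with a position in GENCODE M21, no other overlaps Trank1.

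The 250 bases before the annotated Trank1 start site are shown because they are the promoter-side sequence of the gene that went from silent to transcribed. They cover chr9:111311489-111311738 on the plus strand, from RefSeq on GRCm38.p6, with every CG pair in capitals.
Trank1: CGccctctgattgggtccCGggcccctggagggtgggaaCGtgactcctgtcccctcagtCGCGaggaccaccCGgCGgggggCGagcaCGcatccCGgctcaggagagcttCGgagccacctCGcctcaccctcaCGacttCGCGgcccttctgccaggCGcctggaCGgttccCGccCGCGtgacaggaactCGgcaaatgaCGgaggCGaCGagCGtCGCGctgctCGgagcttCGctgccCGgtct
These bases hold 30 CG pairs. In the window of 300 bases that also takes the first 50 bases of the gene there are 40, and 3.80% of the 27025 promoter windows (1 per gene) in the same RefSeq table hold as many or more (median 7). CG reads the same on both strands, so each pair is counted once. The window of Epm2aip1 holds 20, which 26.8% of windows reach. The windows at both listed start sites of Lrrfip2 hold 36 and 38, reached by 6.02% and 4.78% of windows. High CG counts were found at Trank1 and at Lrrfip2, a neighbour that was not called, while Epm2aip1 had fewer. No window for Dclk3 or Golga4 was found in the same RefSeq table. Any part of CG content in the rise of Trank1 was not tested.

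Trank1 had 2, 1 and 8 reads in control libraries 1, 2 and 3 and 952, 965 and 905 reads in mutant libraries 1, 2 and 3. The levels were 0.136, 0.0628 and 0.454 CPM in controls and 52.2, 57.5 and 60.5 CPM in mutants. Every mutant library was far above every control library, and the mutant libraries lay close together. The mean was 0.218 ± 0.208 CPM in controls and 56.7 ± 4.21 CPM in mutants (SD, n = 3 each). Summed over libraries, the 11 control and 2822 mutant reads give a ratio of CPM of 248, with an exact 95% interval of 138 to 497 that covers counting error only. The fitted log2 fold change was 7.92 (SE 0.43), the fifth highest of 14345 genes tested. It ran from 7.49 to 9.08 when 1 library was left out. The highest value came without control 3, which holds most of the control reads. A count of 3 reads corresponds to 0.170 to 0.204 CPM in the control libraries, so controls 1 and 2 were below that floor. By level per exon length, Trank1 stood at percentile 0.239 of the tested genes in controls and at percentile 47.9 in mutants. The filter removed genes as low in both groups, so the place near the bottom in controls follows from the filter and the choice of Trank1.

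**Figure D1:**
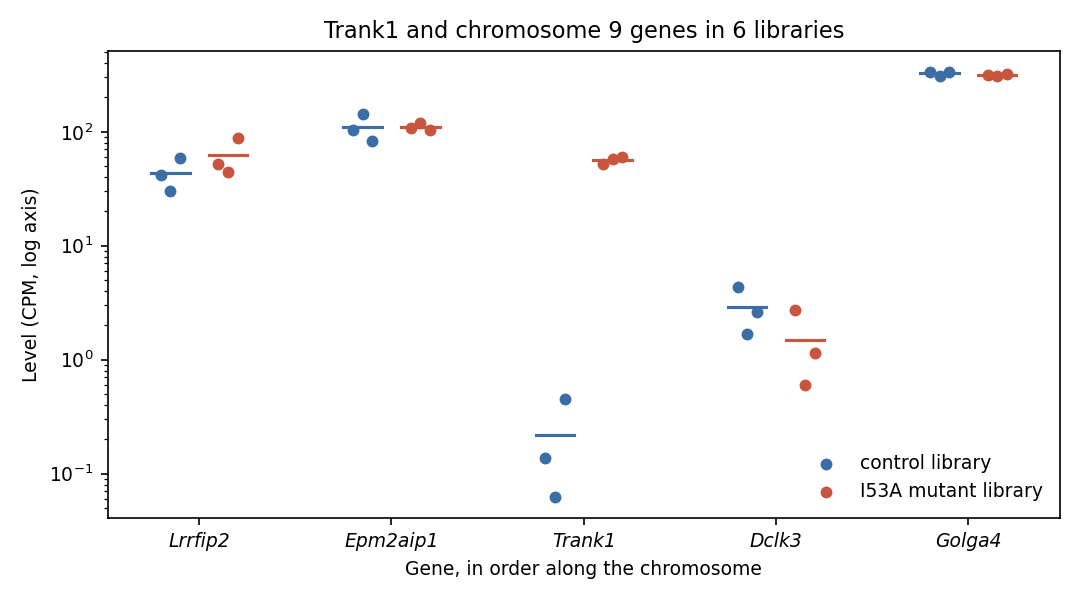
Level of each gene in every library, in CPM on a log axis, with control libraries in blue, mutant libraries in red and a bar at each group's mean (n = 3). Trank1 lies between 0.0628 and 0.454 CPM in controls and between 52.2 and 60.5 CPM in mutants, while the groups overlap for the other 4 genes.

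Epm2aip1, the nearest gene before Trank1, was at 103, 143 and 82.8 CPM in controls 1 to 3 and at 109, 119 and 104 CPM in mutants 1 to 3. All mutant values fell inside the control range. The means were 110 ± 30.8 and 111 ± 7.62 CPM (SD, n = 3 each). The log2 fold change was 0.01 (SE 0.21, edgeR quasi-likelihood test, adjusted p = 0.989). Its 95% interval, as a ratio of mutant to control, was 0.732 to 1.39.

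Dclk3, the nearest gene after Trank1 and on the same strand, had 64, 27 and 46 reads in controls and 50, 10 and 17 reads in mutants. Its levels were 4.36, 1.69 and 2.61 CPM against 2.74, 0.596 and 1.14 CPM. Mutants 2 and 3 lay below all controls, and mutant 1 lay inside their range. Within the replicate numbers 1, 2 and 3 the mutant library was 0.629, 0.352 and 0.435 times its control. The means were 2.89 ± 1.35 and 1.49 ± 1.12 CPM (SD, n = 3 each). By the edgeR quasi-likelihood test this was -0.94 on the log2 scale (SE 0.69, adjusted p = 0.601). The 95% interval of the ratio was 0.179 to 1.51. With this spread between libraries a moderate difference in Dclk3 could go undetected, but a rise of the size seen in Trank1 lies outside the interval.

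Lrrfip2 was at 41.4, 30.1 and 59.0 CPM in controls and 52.5, 44.4 and 89.0 CPM in mutants. The groups overlapped, and the library of number 3 was the highest of its group in both. The means were 43.5 ± 14.6 and 62.0 ± 23.8 CPM (SD, n = 3 each). On the log2 scale the difference was 0.51 (SE 0.31, edgeR quasi-likelihood test, adjusted p = 0.512). The 95% interval of the ratio was 0.879 to 2.31. Within the replicate numbers 1, 2 and 3 the mutant library was 1.27, 1.48 and 1.51 times its control. With the replicate number as a block the log2 fold change was 0.50 (SE 0.14), with a 95% interval of 0.19 to 0.81. That interval lay above 0, but Lrrfip2 was still without a call (edgeR with the block, adjusted p = 0.0563).

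Golga4 was at 334, 311 and 335 CPM in controls and 314, 310 and 324 CPM in mutants. These were the steadiest values of the 5 genes. The means were 327 ± 13.3 and 316 ± 6.98 CPM (SD, n = 3 each), and the log2 fold change was -0.05 (SE 0.13, edgeR quasi-likelihood test, adjusted p = 0.920). The ratio had a 95% interval of 0.791 to 1.18. Of the 7 other tested genes within 0.5 Mb of Golga4 none was called by edgeR or DESeq2, and 1 had an unadjusted p under 0.05, where 14.9% of all genes did (Itga9, an integrin gene, at 1.90 and 5.99 CPM, edgeR, adjusted p = 0.201). With the replicate number as a block 1 of them was called (Plcd1, a phospholipase C, at 10.96 and 18.7 CPM, adjusted p = 0.0460), against 9.38% of all genes tested.

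Per length, the mutant libraries placed Trank1 within the range of its neighbours. CPM per kilobase of annotated exon (RPKM) averaged 4.32 for Trank1 in mutants, against 15.4 for Epm2aip1, 9.78 for Lrrfip2, 0.496 for Dclk3 and 23.2 for Golga4. In controls the same scale gave 0.0166 for Trank1, 15.3 for Epm2aip1, 6.86 for Lrrfip2, 0.961 for Dclk3 and 24.02 for Golga4. Trank1 was thus the lowest of the 5 in controls and the fourth in mutants, where its libraries (3.98 to 4.61 RPKM) overlapped none of the others. Golga4, Epm2aip1 and Lrrfip2 kept this descending order in all 6 libraries, with the last pair closest in mutant 3, at 14.5 and 14.1 RPKM.

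Within 1 Mb of Trank1 the files list 36 other genes with a position, 30 before it and 6 after it. Of these, 16 were tested and none was called by edgeR on the group alone, with 1 of the 16 at an unadjusted p under 0.05 against 14.9% of all genes. DESeq2 and limma-voom called none of them either. Their median log2 fold change was 0.10 (11 above 0 and 5 below), against 0.00 over all genes tested, and the values ran from -0.94 to 1.09. No 95% interval came near that of Trank1 (6.96 to 8.89). The highest upper bound was 2.73, for Tmie, a gene of hair cell mechanotransduction that ranged from 2 to 76 reads. The side after Trank1 is gene-poor, and 15 of the 16 tested genes lie before it. The 1 tested gene after it is Dclk3.

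**Figure D2:**
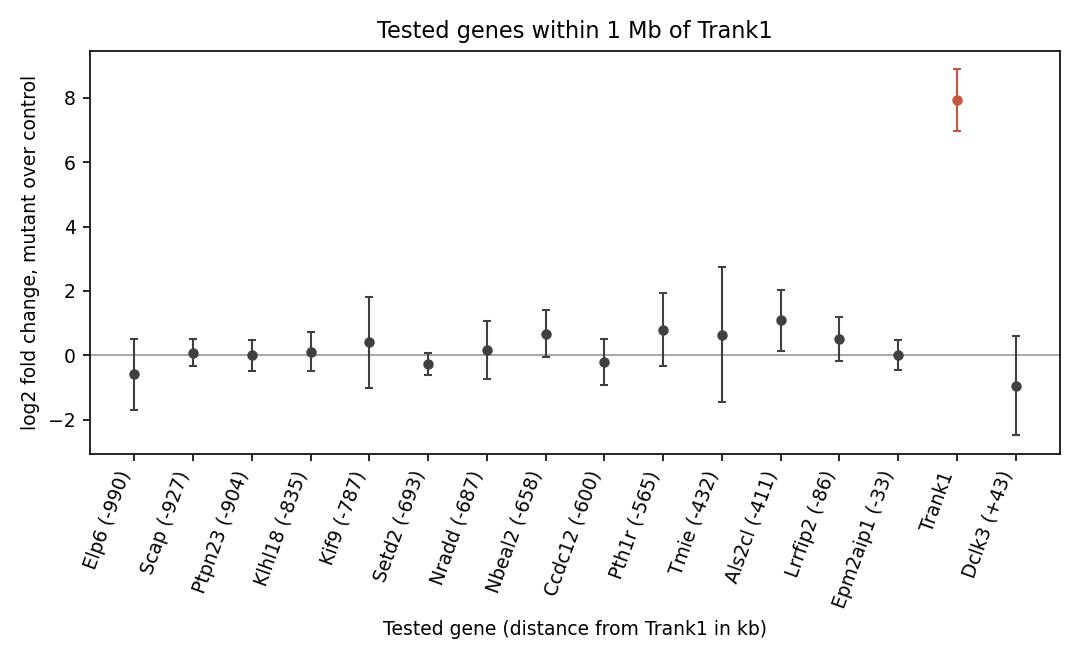
Log2 fold change (mutant over control) with its 95% interval for tested genes within 1 Mb of Trank1, 15 of the 16 neighbours, in order along the chromosome, with the distance from Trank1 in kb. Trank1 (red) is at 7.92 and the neighbours shown are between -0.94 and 1.09.

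Als2cl, which encodes a relative of the alsin guanine nucleotide exchange factor and ends 411 kb before Trank1, came closest to a call. It was at 8.24, 3.39 and 13.3 CPM in controls and 17.4, 14.7 and 21.1 CPM in mutants. All mutants were above all controls, as for 12.1% of genes tested. The log2 fold change was 1.09 (SE 0.43, edgeR quasi-likelihood test, adjusted p = 0.263). With the replicate number as a block it was called (1.25, SE 0.30, adjusted p = 0.0338), where 6.09% of all genes were called up, and also without control 3 (1.62, adjusted p = 0.0476). Lrrfip2 and Epm2aip1, which lie between Als2cl and Trank1, were not called in either fit.

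Of the other nearest tested genes, Tmie was at 1.67 and 2.61 CPM on average in controls and mutants (adjusted p = 0.831, edgeR). Pth1r, the parathyroid hormone receptor gene 565 kb away, was at 1.16, 2.38 and 1.93 CPM in controls and 2.96, 3.64 and 2.94 CPM in mutants. Its groups did not overlap, but it was not called (log2 fold change 0.80, SE 0.51, edgeR, adjusted p = 0.535). Setd2, the histone H3 lysine methyltransferase gene, had the most reads of the window's tested genes, at 543 ± 40.3 and 454 ± 67.5 CPM (SD, n = 3 each, edgeR, adjusted p = 0.503).

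The 20 untested genes of the window held at most 60 reads over all 6 libraries (Arpp21), and 9 of them held none. Stac, the gene after Dclk3, 166 kb from Trank1, had 1, 0 and 6 reads in controls and 15, 4 and 8 in mutants. Arpp21, a brain phosphoprotein gene, had 15, 9 and 8 reads against 18, 2 and 8. Ccrl2, a chemokine receptor-like gene 254 kb before Trank1, had 7, 0 and 1 reads against 4, 9 and 31 (0.178 and 0.943 CPM on average), with most of the mutant reads in library 3. The groups overlapped for these 3 genes. Each of the other untested genes had fewer reads in all than any of them. These genes are outside the naming rule and were chosen after their values were seen.

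Summed over all 36 neighbours within 1 Mb, the level was 951 to 1069 CPM in controls and 876 to 1143 CPM in mutants, so the groups overlapped. Setd2 alone averaged 543 CPM in controls and 454 CPM in mutants, so the sum tells little of the genes at low levels.

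By edgeR without the block, no gene within 4 Mb of Trank1 was called. Before Trank1 the nearest called gene was Rab6b, a Golgi small GTPase gene 8.13 Mb away, whose level of 2.81 ± 1.70 CPM in controls rose to 16.5 ± 7.33 CPM in mutants (2.54 on the log2 scale, SE 0.48, edgeR, adjusted p = 0.0218). After it, Gadl1, an acidic amino acid decarboxylase gene 4.51 Mb away, fell from 22.9 ± 7.31 to 4.48 ± 2.72 CPM (-2.34, SE 0.47, edgeR, adjusted p = 0.0267). The nearest risen gene on that side was Myrip, which links Rab27 to myosin, at 8.91 Mb (2.80, SE 0.50, edgeR, adjusted p = 0.0166). The nearest calls depended on the fit. With the block they were Als2cl, 411 kb before Trank1, and Cmtm8, a gene of the chemokine-like MARVEL family 3.39 Mb after it (1.96, edgeR, adjusted p = 0.0401). By DESeq2 they were Rrp9, of ribosomal RNA processing, 4.83 Mb before it (adjusted p = 0.0154) and Cmtm8 (adjusted p = 0.0335). Apart from Als2cl, these genes were outside the naming rule and were chosen after their values were seen. Within 2 Mb, 23 other genes were tested and none was called by edgeR, with 1 at an unadjusted p under 0.05 against 14.9% of all genes. DESeq2 called 0 of the 23, and the block 1. Within 5 Mb 1 of 131 was called (0.763%), against 6 up and 2 down with the block and 4 by DESeq2. Within 10 Mb it was 3 of 193 (1.55%), against 10 up and 3 down with the block and 8 by DESeq2. Over the chromosome without Trank1 it was 26 of 804, of which 21 were up and 5 down (3.23%), against 48 up and 28 down with the block and 54 by DESeq2.

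**Figure D3:**
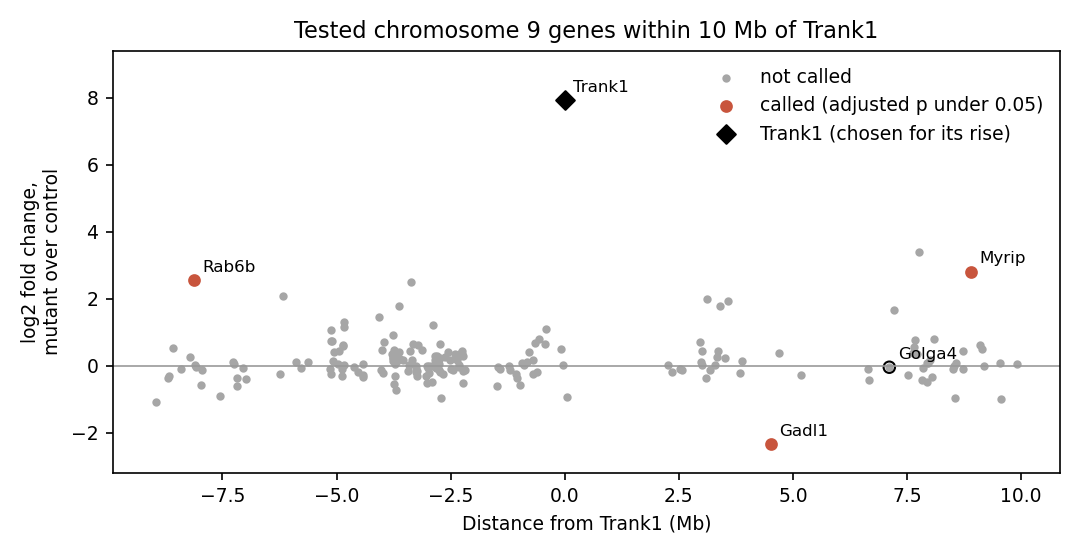
Log2 fold change (mutant over control) of the tested genes shown within 10 Mb of Trank1, against the distance from Trank1 in Mb, with called genes in red, other genes in grey, Trank1 as a black diamond and Golga4 circled. Rab6b, Gadl1 and Myrip are the genes called without the block, at 8.13 Mb before and 4.51 and 8.91 Mb after Trank1.

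The same question can be put to all risen genes, and the count is a description of these libraries. Of the 369 risen genes with a position, 43 (11.7%) had a risen gene as nearest tested, non-overlapping neighbour on at least 1 side. Over all 14225 tested genes with a position this share was 5.39%. Of the 88 risen genes under 1 CPM in controls, 12 (13.6%) had one, and Trank1 was not among them. The share was thus higher among risen genes than over all genes, and genes with a risen nearest neighbour were a minority in each set. The difference between these shares was not tested.

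The 5 genes closest to Trank1 over the 6 libraries were Cldn6, Adgrb1, Krt7, Six2 and Rbm46. Closeness was the root mean square distance of centred log2 CPM (prior count 2), which was 0.753, 0.771, 0.790, 0.884 and 1.07. Cldn6 encodes a claudin of embryonic epithelia, Krt7 a keratin of simple epithelia, Adgrb1 an adhesion receptor, Six2 a homeobox factor and Rbm46 a germ cell RNA-binding protein. None lies on the same chromosome as Trank1. Krt7 was at 1.09, 0.502 and 1.08 CPM in controls and 56.0, 71.0 and 79.2 CPM in mutants. None of the 10 nearest tested neighbours of these 5 genes was called. Over all tested genes with a position, 2.76% of such neighbours were called up, so 0 of 10 tells little. Krt87, beside Krt7, had a log2 fold change of 3.52 without a call. Sharing of reads between these related keratins was not tested.

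By level per exon length, Trank1 ranked 10 in mutants among the 88 risen genes with a length that were under 1 CPM in controls (4.32 RPKM, against a median of 1.30). Its mutant libraries differed little, with an SD of 7.43% of the mean, where the median of all 90 such genes was 34.0% and the range 6.01% to 81.4%. Of the 8 of these genes with at least 20 CPM in mutants, where counting error is small, Trank1 had the lowest such ratio. The gene set was chosen by the same contrast, so this is a description.

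**Figure D4:**
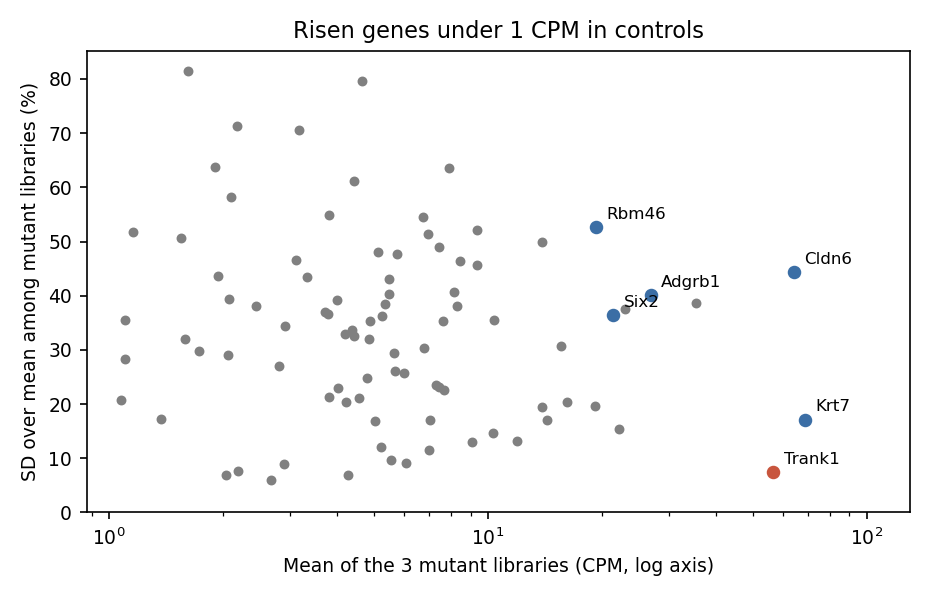
SD as a percentage of the mean among the 3 mutant libraries, against their mean level in CPM (log axis), for the 90 risen genes under 1 CPM in controls. Trank1 (red) is at 56.7 CPM and 7.43%, and the 5 genes most like it are in blue.

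Because Trank1 is known from brain, markers of neurons and of other skin cells were read beside it. The summed level of 10 neuron markers was 7.53 to 19.1 CPM in controls and 22.8 to 29.2 CPM in mutants, without overlap. Of the 5 tested markers 1 rose, Map2, a microtubule protein gene, from 7.10 ± 1.37 to 19.4 ± 3.40 CPM (log2 fold change 1.45, SE 0.27, edgeR, adjusted p = 0.0188). By the same test 2.59% of all genes were called up. An unadjusted p under 0.05 was found for 2 of these 5 markers, Map2 and Rbfox3, against 14.9% of all genes. Without Map2 the sum of the markers was 1.26 to 10.4 CPM in controls and 6.19 to 6.62 CPM in mutants. Rbfox3, a marker of mature neurons, was at 0.390 and 1.75 CPM on average (edgeR, adjusted p = 0.206). All its mutants were above all its controls, as for 12.1% of genes tested. Elavl3 was at 0.598 and 1.29 CPM, Tubb3 at 0.747 and 0.724 CPM, Snap25 at 1.79 and 1.59 CPM, and Elavl4 and Nefl at or under 0.119 CPM. Syt1 was at 1.12 and 0.332 CPM, Stmn2 at 0.227 and 0.357 CPM, and Gap43 at 0.242 and 0.182 CPM. Control 3 held 85 of the 93 control reads of Snap25 and 53 of the 58 of Syt1. Per exon length Rbfox3 reached 0.300 RPKM in mutants and Map2 1.18 RPKM, against 4.32 RPKM for Trank1. Any part of neuronal transcripts in the level of Trank1 was not tested.

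Of the Schwann cell and glia (5 tested), immune (5), melanocyte (5), endothelial (3), fibroblast (6), muscle (1) and Merkel cell (4) markers none was called by edgeR, DESeq2 or limma-voom, and 1 of these 29 had an unadjusted p under 0.05 (Mbp), against 14.9% of all genes. All 5 tested immune markers were lower on average in mutants (median log2 fold change -1.22), and the list's sum was 26.9 to 153 CPM in controls and 18.8 to 52.1 CPM in mutants. With the replicate block Mbp was called (24.5 and 41.1 CPM, adjusted p = 0.0350). The summed levels of each list overlapped between groups. In bulk RNA, a change in the number of cells that carry a transcript and a change per cell cannot be told apart.

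Partners of the neighbours gave no calls by edgeR without the block. None of 11 tested genes of glycogen metabolism and laforin (14 listed) was called by edgeR or DESeq2 (median log2 fold change 0.08), with 1 at an unadjusted p under 0.05 against 14.9% of all genes. Pygm, the muscle glycogen phosphorylase gene, had that p, at 9.30 and 4.12 CPM (adjusted p = 0.230). Epm2a, the gene of laforin itself, was not tested, at 0.167 and 0.464 CPM. None of 11 golgin and trans-Golgi tether genes was called by edgeR or DESeq2, nor had an unadjusted p under 0.05 (0 genes; median -0.06), and Gcc2, which shares the GRIP domain of Golga4, was at 126 and 97.8 CPM (adjusted p = 0.337). None of 5 genes of Lrrfip1, Flii and the Dishevelled family was called by edgeR (median 0.11), with 1 at an unadjusted p under 0.05. That gene, Lrrfip1, was called by DESeq2 and with the replicate number as a block. The paralog of Lrrfip2, it was at 119 and 230 CPM (log2 fold change 0.94, SE 0.29, edgeR, adjusted p = 0.136, 0.0404 by DESeq2 and 0.00269 with the block), with all mutants above all controls. None of 3 tested doublecortin family genes (5 listed) was called by edgeR or DESeq2 (median -0.11, 0 with an unadjusted p under 0.05), and Dclk2 was at 1.22 and 2.45 CPM (adjusted p = 0.680). Over these 30 genes the calls were 0, against 3% of all genes tested.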

How the data were processed

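Each deposited file holds the raw read counts of 1 library by gene symbol, whole numbers that the authors had not normalized, judging by the values. Per the submitters' processing notes, the tools were TopHat2 2.0.13, HTSeq 0.6.1, Cufflinks 2.2.1 and DESeq2 1.6.3, on mm10. Their roles, the annotation release and the strand setting are not stated in the sources used here. Members and gene lists were chosen with earlier results of these data known.

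Groups were compared by edgeR 4.0.16 (R 4.3.3), using its quasi-likelihood test, two-sided, with TMM factors, the filterByExpr filter and no term but the group. P-values were adjusted by Benjamini-Hochberg over all 14345 genes tested. CPM uses TMM effective library sizes. The SE comes from the F statistic, and the 95% interval from the SE and the degrees of freedom of the fit. DESeq2 1.42.0 and limma-voom (limma 3.58.1) were alternatives. The steps were tested on simulated data. Positions and exon lengths came from GENCODE M21 (GRCm38), in which 24046 of 24453 symbols were placed. Distances run between gene ends. Named genes are the 5 members, the 6 nearest tested genes on each side within 1 Mb, called genes there, the 5 genes most like Trank1 and the smallest p of each partner list. Of the genes so named, 1 is not reported here.

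Libraries are numbered 1 to 3 in both groups, and what a number marks is not stated. Same-numbered libraries deviated together from their group means (correlations of 0.168 to 0.363, and no other pair above 0.0891). The numbers were therefore taken to pair the libraries in the block, from the data. The comparison on the group alone leaves this pairing out. It called 430 genes, against 1345 with the block. A gene without a call on the group alone can therefore be called with the block, as Als2cl was. No pair of libraries agreed within sampling noise (chi-square per degree of freedom at least 25.1). The exact interval of the Trank1 ratio of CPM and the count floors cover counting error only. Intervals of the fitted fold changes also take in the spread between libraries. The reads were amplified and carry no molecular identifiers, so they are not independent molecules.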

Additional observations from a re-analysis of the deposited data

How the results depend on the processing

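In all, 430 genes were called, against 1345 with a replicate block and 986 with DESeq2. The block called 1 gene within 1 Mb of Trank1 (Als2cl) in place of 0 and changed no call of Lrrfip2, Epm2aip1, Dclk3 or Golga4. Leaving out 1 library at a time gave 163 to 664 genes in all and 0 to 1 within 1 Mb. The log2 fold change of Trank1 then ran from 7.49 to 9.08, and that of Epm2aip1 from -0.15 to 0.25, below 0 without control 1, control 3 or mutant 2. Over all 13 alternatives Lrrfip2 ran from 0.15 to 0.81, Dclk3 from -1.73 to -0.53 and Golga4 from -0.08 to 0.00, with no call in any. Windows of 0.5 and 2 Mb also held 0 calls. With library totals only, the median of all genes shifted to 0.04. The spread between libraries limits Dclk3, with 50, 10 and 17 reads in the mutants. Depth limits the control level of Trank1, with 11 reads. The cause of these dependences was not tested.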
